A study of Mus musculus with 2 samples.

Results

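TEC is the GENCODE annotation class for loci that still await an experiment, stretches of genome that are marked as genes because single-exon cDNA or expressed-tag sequences map there, without settled evidence that they make a transcript of their own. The loci described here are the 266 genes, of 3213 with transcripts of this class alone and of 55536 genes in all, that held 200 or more estimated counts in each of the 2 libraries. They were chosen by those counts, so their levels and the ratio between the libraries describe the choice and carry no test. Their position in the genome, their sequence and the genes around them were not used to choose them.

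RNA came from mouse bone marrow-derived macrophages of strain C57BL/6J that had been given Lipid A, the part of bacterial lipopolysaccharide sensed through Tlr4, at 100 ng/ml for 120 min. The RNA was from the nucleoplasmic fraction (1 label field says only nucleus) and was sequenced as total RNA after depletion of ribosomal RNA. Both libraries belong to this 1 group and name the same donor entry, so no comparison of conditions exists and the spread between replicates 1 and 2 is the only error. The labels give an RNA input of 1 µg for replicate 1 and 500 ng for replicate 2, so input and replicate cannot be told apart. Age and sex were not given for the mice.

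Genes are copied by RNA polymerase II into long precursors from which the introns are cut out by splicing. Excised introns and unspliced precursors are found in the nucleus and are largely absent from the cytoplasm, so RNA from nuclear fractions holds more intron sequence than RNA of whole cells, and ribosomal RNA depletion keeps RNA without a poly(A) tail. A single-exon locus that lies in an intron, on the strand of the surrounding gene, shares its sequence with that gene's precursor, and short reads from the one cannot be told apart from reads of the other.

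Library totals were 14374739 estimated counts for replicate 1 and 16372797 for replicate 2. Mitochondrial genes took 0.424% and 8.70% of them. Of 10 macrophage markers 9 reached 1 TPM (a level divided by gene length and scaled alike in both libraries) in both libraries, and the counts of the 10 summed to 27640 in replicate 1 and 72004 in replicate 2. Of 7 stromal markers none reached 1 TPM in both, but their median was 2.63 TPM in replicate 1 and 0.05 TPM in replicate 2. Their summed counts were 4366 in replicate 1 and 23 in replicate 2. T cell, B cell, neutrophil and erythroid markers summed to between 1 and 35 counts a library. The part of these differences between the libraries in the results below was not tested.

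The loci together took a small and unequal share of the libraries. They held 2.18% of all counts in replicate 1 (95% Wilson interval 2.17 to 2.18%, counting error only) and 1.30% in replicate 2 (1.30 to 1.31%). These shares were 79.0% and 80.2% of the counts of the whole class. Of the 3213 TEC genes 1431 had no count in either library, so most of the class was at or near 0 while a small number of loci carried it. The 10 most counted loci alone held 22.5% and 21.8% of the counts of the 266.

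Counts of the loci were lower than those of protein-coding genes at the same limit, most of all in replicate 2. They had a median of 625 in replicate 1, from 204 to 12902, and of 441.5 in replicate 2, from 200 to 9216. The 5227 protein-coding genes that passed the same limit had median counts of 747 and 781. On the TPM scale the median level was 19.7 in replicate 1, from 3.17 to 408, and 9.08 in replicate 2, from 1.49 to 175. The mean of these medians was 14.4 ± 7.50 TPM (SD, n = 2). The protein-coding genes had medians of 22.8 and 14.7 TPM. TPM was higher in replicate 1 for 264 of the 266 loci and for 89.0% of the protein-coding genes. Counts were higher in replicate 1 for 88.7% of the loci and for 50.3% of the protein-coding genes.

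In length the loci were close to protein-coding genes. Their length had a median of 2712 bases, against 2781 for the protein-coding genes at the limit and 1865 for the TEC genes below it. A longer gene takes more reads at the same level, so length entered the choice through the counts. All 266 carry the type TEC in the annotation, and 265 of them have a single exon. Their GC content had a median of 41.5%, lower than the 49.8% of the protein-coding genes and close to the 42.3% of all TEC genes.

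The longest was 9330162G02Rik at 30942 bases (chr7:59223847-59254788 in mm10, minus strand), which lies across the opposite strand of the ubiquitin ligase gene Ube3a. It held 3837 and 3634 counts in replicates 1 and 2, but its level per length was only 8.87 and 5.57 TPM. Gm43379 followed with 7726 bases and 335 and 261 counts, and Gm37033, in an intron of the inositol trisphosphate kinase gene Itpkb, with 7350 bases and 3188 and 1941 counts. At the other end stood Gm45343 with 828 bases (in the histone methyltransferase gene Nsd3), Gm37666 with 866 bases (in Cers6) and Gm42908 with 870 bases (in Mlxip, a glucose-responsive transcription factor). These 3 short loci had 217 and 211, 1441 and 989, and 422 and 203 counts.

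**Figure D1:**
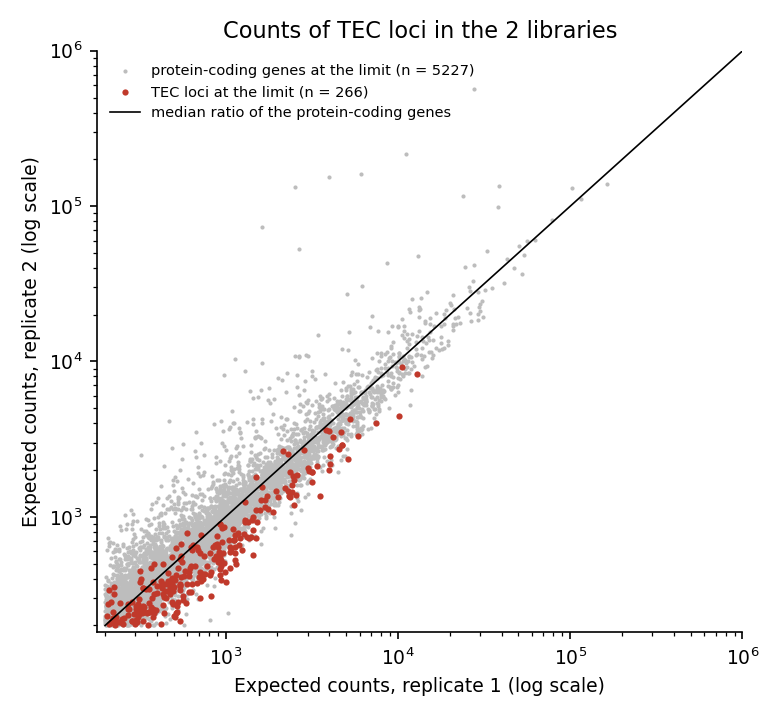
Expected counts of each locus in replicate 1 (horizontal) and replicate 2 (vertical), both on log scales, for the 266 TEC loci (red) and the 5227 protein-coding genes at the same limit (grey). The line marks the median ratio of the protein-coding genes, and 236 of the 266 red points lie below it.

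Most of the highly counted loci lay inside the introns of protein-coding genes, on the same strand. This held for 202 of the 266 (75.9%), against 45.9% of all TEC genes and 36.1% of the TEC genes with no count in either library. Another 10 overlapped an exon of a coding transcript on the same strand, and 5 an exon of a noncoding transcript of such a gene. A further 31 (11.7%) overlapped protein-coding genes on the opposite strand only, 11 overlapped only noncoding genes and 7 overlapped no gene. Of all TEC genes 29.9% overlapped none, and of those with no count 43.2%. Overlap with other TEC genes was left out here, and noncoding stands for every type but protein-coding and TEC, pseudogenes included. No 2 of the 266 loci overlapped each other.

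**Figure D2:**
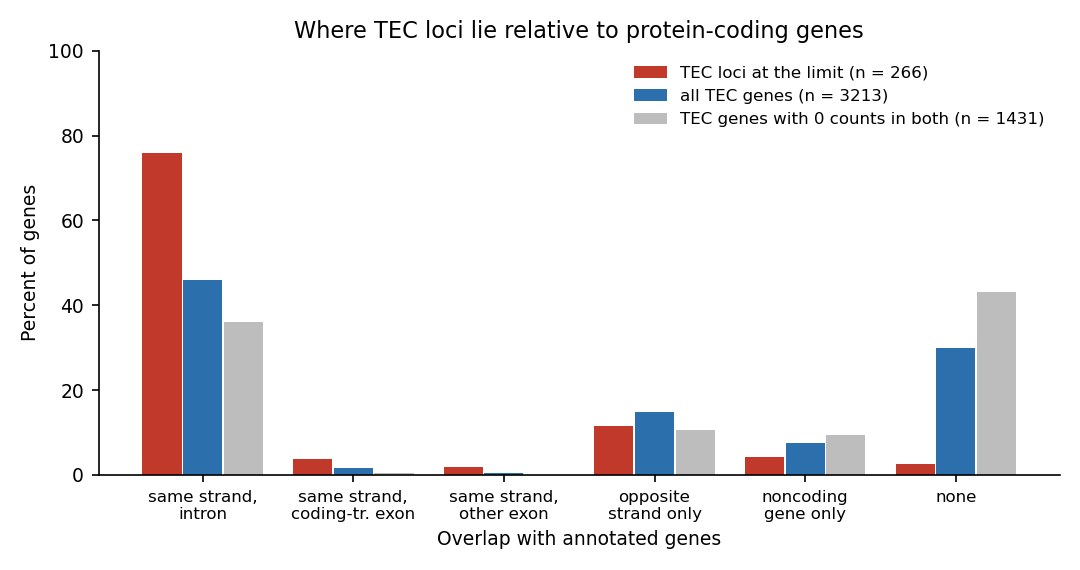
Percent of genes in each class of overlap with annotated genes, other TEC genes left out. Bars are for the 266 loci (red), all 3213 TEC genes (blue) and the 1431 TEC genes with no count in either library (grey). The same-strand intron bar is 75.9% for the loci and 36.1% for the genes with no count, and the bar for no overlap is 2.63% and 43.2%.

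Whether an intronic TEC gene was highly counted went with how highly its host gene was counted. Where the host on the same strand had fewer than 200 counts in 1 or both libraries, 4 of 905 intronic TEC genes (0.442%) were among the 266. With hosts of 200 to 1000 counts in the lower library the share was 51 of 304 (16.8%). With hosts of 1000 to 5000 counts it was 91 of 200 (45.5%). With hosts of 5000 counts or more it was 56 of 66 (84.8%). Over these 4 bins the median count of all intronic TEC genes, whether chosen or not, was 0, 99, 240 and 1059 in replicate 1 and 0, 70.5, 188 and 613 in replicate 2.

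The order was the same for TEC genes in introns of a protein-coding gene on the opposite strand, clear of its exons. Here 2 of 152 with hosts under 200 counts, 5 of 43, 6 of 30 and, with hosts of 5000 counts or more, 5 of 7 were among the 266. The last of these bins holds few genes. Whether counting used strand is not given in the sources used here, so for the opposite-strand loci reads of the host gene and of the locus may not be told apart.

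The 202 same-strand intronic loci lay in 158 host genes, 4 of which were below 200 counts in at least 1 library. These hosts were long, with a median span of 94.9 kb against 33.6 kb for all protein-coding genes at the limit. An intron must be longer than the locus it holds, so span entered the choice of hosts. Hosts of intronic TEC genes below the limit were not set beside them. Per length, a locus stood at a median of 0.351 times the TPM of its host in replicate 1 and 0.290 times in replicate 2. Levels of locus and host were related: across the 202 loci, Pearson's r of log2 TPM between locus and host was 0.57 in replicate 1 and 0.53 in replicate 2. Loci of 1 host share its value and library, so these r describe the loci and are not tests.

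**Figure D3:**
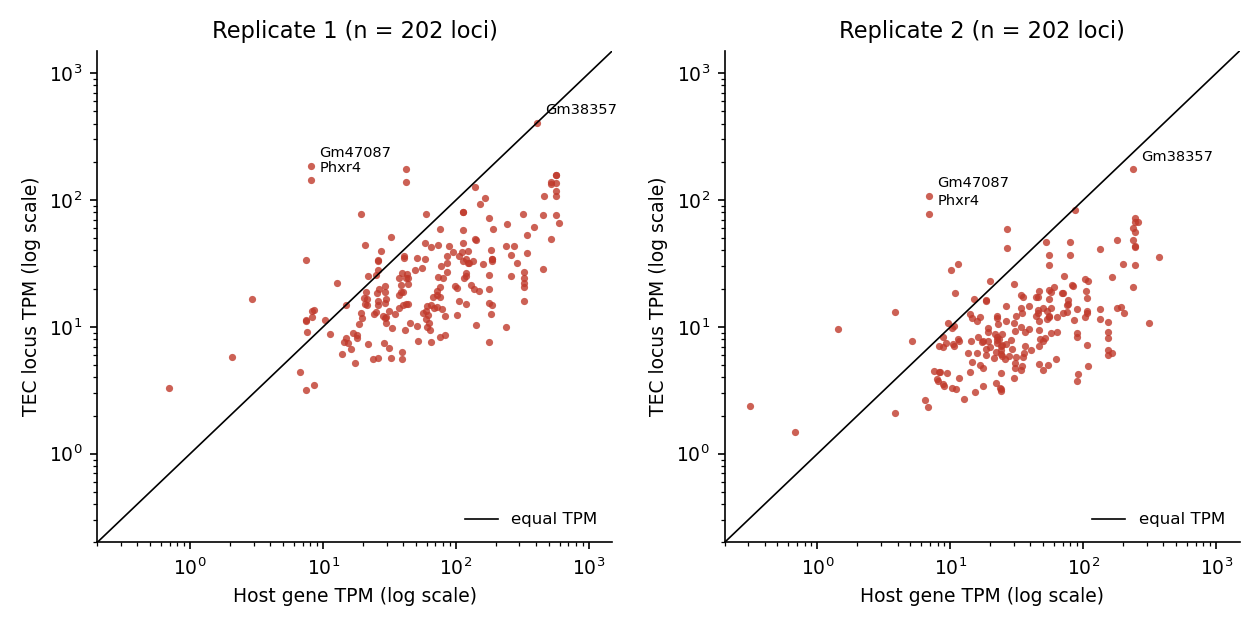
TPM of the 202 same-strand intronic loci (vertical) against TPM of the gene that holds them (horizontal), both on log scales, 1 panel a library. Points above the line of equal TPM are loci above their host, 27 in replicate 1 and 15 in replicate 2. The pair in Maml2 stands farthest above it.

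The most counted locus was Gm38357 (chr3:51231917-51234380, plus strand), in an intron of Noct, which encodes nocturnin, a protein with a daily rhythm in many tissues. It held 12902 counts in replicate 1 and 8350 in replicate 2, or 408 and 175 TPM (291 ± 165, SD, n = 2), and was also the highest by TPM. Its host Noct stood at 407 and 237 TPM, so locus and host were level in replicate 1 and the locus was at 0.739 times the host in replicate 2.

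Gm47087 (chr9:13308214-13312446, plus strand) came second, with 10549 and 9216 counts. It lies 10.3 kb into the 411 kb of Maml2, a coactivator of Notch signalling that itself had only 699 and 888 counts. Its 187 and 108 TPM (147 ± 55.5, SD, n = 2) were 23.0 and 15.6 times those of Maml2, far from the ratio of a typical locus. A second locus in the same gene, Phxr4, stood 133 kb into it and was 17.7 and 11.3 times above the host, at 144 and 78.1 TPM. Phxr4 is named here after its values were seen.

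The third, Gm37084 (chr1:131086252-131092149, minus strand), lies in Mapkapk2, the kinase that p38 activates in cells stimulated through toll-like receptors. It had 10088 and 4457 counts and 126 and 36.9 TPM, close to the host in replicate 1 (0.911 times) and at 0.464 times the host in replicate 2. A130071D04Rik, in the gene Ptprc for the leukocyte surface phosphatase CD45, had 5258 and 4233 counts but only 0.110 and 0.0960 times the TPM of its highly expressed host. 9430034N14Rik, in Tor1aip1, a protein of the inner nuclear membrane, had 4675 and 3533 counts and 0.616 and 0.591 times the TPM of its host. Gm43197 (chr6:3336772-3339354, minus strand) was the only 1 of the 10 most counted outside protein-coding genes. It overlapped a noncoding gene alone and had 3973 and 3576 counts, or 119 and 71.2 TPM.

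By TPM, Gm49730, Gm43982 and Gm37666 also stood among the 5 highest. Gm49730 overlaps an exon of a coding transcript of Parp14, an ADP-ribosyltransferase gene, and had 192 and 98.8 TPM, 0.158 and 0.130 times its host. Gm43982, in Etv6, which encodes an ETS family repressor, had 176 and 58.8 TPM, 4.21 and 2.21 times its host.

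In all, 15 of the 202 intronic loci were above their host in TPM in both libraries, 8 of them at 2-fold or more in both. They were loci in Maml2, Plcl1, Tmtc2, Gphn, Ubash3b, Gm16867, Etv6, Maml3, Zfp710, Fbxw7, Kpna4, Cdyl and Ube2k, and Maml2 and Etv6 held 2 each. These names were taken after the values were seen. Some of these hosts were themselves low: Plcl1, a gene for a phospholipase-like protein, had 43 and 42 counts while its locus Gm38056 had 224 and 243. Of the 31-base words of Gm38056, however, 27.5% also occur in transcripts of other genes, most of them in Akr1b3. Some of its reads may therefore be of other genes. The locus in Gm16867 is Gm37094, which has the same sequence and counts as Gm20236 in Slc25a37, so its level is uncertain. Gm48207, the locus in Tmtc2, had 6.0 and 5.5 times as many counts in a second table, quantified from the reads. Its level therefore depends on the table used.

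Several hosts held more than 1 of the loci. There were 27 such hosts with 71 loci between them. Cers6 held 6 of its 6 intronic TEC genes, Camk2d 5 of 7, Med13l 5 of 5, Akap13 and Picalm 4 of 4 each, and Ap3s1, Dock10 and Snd1 3 of 3 each. Within hosts the SD of log2 TPM was 0.70 in replicate 1 and 0.67 in replicate 2, against 1.30 and 1.21 over those 71 loci as a whole. Loci of 1 host were thus closer to each other in level than loci of different hosts, as a description of these libraries.

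Cers6, which encodes ceramide synthase 6, gave the fullest series. The gene spans 253 kb and had 17698 and 13163 counts, or 567 and 245 TPM. Gm37159, 29.9 kb from its start, held 7467 and 4027 counts (157 and 56.0 TPM). Gm38236, 44.6 kb in, held 4535 and 2715 counts (107 and 42.4 TPM). Gm37651, 101 kb in, held 2448 and 1834 counts (136 and 67.6 TPM). These first 3 loci lay between 0.174 and 0.276 times the TPM of Cers6 in both libraries.

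Gm37747, 128 kb in, held 4033 and 2450 counts (75.7 and 30.5 TPM). Gm37666, 152 kb in, held 1441 and 989 counts (158 and 71.7 TPM). Gm38377, 157 kb in, held 5906 and 3304 counts (118 and 43.8 TPM). The lowest of the 6, Gm37747, was at 0.134 and 0.125 times the host and the highest, Gm37666, at 0.278 and 0.293 times. Level did not follow the order along the gene. All 6 had more counts in replicate 1.

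Because the loci were annotated from single-exon sequences, their 3′ ends are the letters that show most directly whether an annotated end looks like that of a polyadenylated RNA. The last 60 bases of the 6 loci in Cers6 are given 5′ to 3′ in lower case, from the GENCODE M21 transcripts on mm10, plus strand. Capitals would mark the poly(A) signals AATAAA or ATTAAA in the last 50 bases, and none of the 6 has either.
Gm37159, chr2:68894911-68894970: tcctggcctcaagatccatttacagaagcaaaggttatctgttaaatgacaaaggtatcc
Gm38236, chr2:68909172-68909231: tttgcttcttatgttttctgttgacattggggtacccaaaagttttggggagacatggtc
Gm37651, chr2:68963651-68963710: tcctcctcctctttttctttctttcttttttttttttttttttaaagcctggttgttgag
Gm37747, chr2:68993324-68993383: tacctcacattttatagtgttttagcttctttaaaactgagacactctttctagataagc
Gm37666, chr2:69014418-69014477: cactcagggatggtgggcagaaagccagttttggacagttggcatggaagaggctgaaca
Gm38377, chr2:69021808-69021867: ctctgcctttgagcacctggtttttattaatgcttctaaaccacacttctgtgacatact

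The ends of the 3 most counted loci also hold neither signal. They are shown because these loci lead by counts, Gm38357 and Gm47087 on the plus strand and Gm37084 on the minus strand, each read along its own strand.
Gm38357, chr3:51234321-51234380: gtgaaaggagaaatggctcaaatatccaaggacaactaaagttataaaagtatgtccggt
Gm47087, chr9:13312387-13312446: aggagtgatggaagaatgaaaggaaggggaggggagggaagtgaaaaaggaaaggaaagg
Gm37084, chr1:131086252-131086311: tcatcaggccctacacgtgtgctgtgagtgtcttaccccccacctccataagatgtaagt

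Other loci do carry the signal. The 3 most counted same-strand intronic loci with AATAAA in the last 50 bases are shown for contrast, with each signal in that window in capitals, overlapping ones joined; all 3 are on the minus strand. Gm44291, in the endocytosis gene Dennd1a, had 2837 and 2699 counts. Gm45407, in Arhgap10, had 3520 and 1359. Gm47445, in Dse, an enzyme of dermatan sulfate synthesis, had 2144 and 2634.
Gm44291, chr2:38104432-38104491: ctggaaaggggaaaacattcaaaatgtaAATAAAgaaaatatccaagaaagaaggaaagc
Gm45407, chr8:77368841-77368900: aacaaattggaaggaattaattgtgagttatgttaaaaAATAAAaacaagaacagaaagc
Gm47445, chr10:34178235-34178294: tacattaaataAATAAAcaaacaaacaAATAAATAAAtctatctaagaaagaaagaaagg

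Over all the loci, read along the transcript strand only, 52 of 267 transcripts (19.5%) had AATAAA or ATTAAA in the last 50 bases, against 28.9% of 3257 transcripts of all TEC genes. Of 18468 coding transcripts of the protein-coding genes at the limit, 50.1% had one. The share was thus lower in the highly counted loci than in their class and in messenger RNAs. The words are short and the loci are poorer in G and C than messenger RNAs, so a match is no evidence of use and no match says only that these letters are not in this window.

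Med13l, a gene for a part of the Mediator complex, held 5 loci on its own strand and a sixth, Gm43785, on the other strand 1.08 kb from its start. From the start of the gene the 5 had 0.714, 0.713, 0.405, 0.516 and 0.292 times the TPM of Med13l in replicate 1 and 0.665, 0.555, 0.351, 0.298 and 0.220 times in replicate 2. They were lower farther into the gene, apart from the fourth, Gm43052, in replicate 1. Gm43785 stood at 0.311 and 0.306 times.

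In Camk2d, a calcium-dependent kinase gene, the 7 intronic TEC genes were between 0.0183 and 0.0833 times the host in replicate 1 and between 0.0128 and 0.0705 times in replicate 2. The 2 that missed the count limit, Gm43006 with 241 and 91 counts and Gm43005 with 36 and 18, lay between loci that passed it. In Akap13, which encodes a scaffold for protein kinase A, the 4 loci were at 0.0424 to 0.145 times the host in replicate 1 and 0.0417 to 0.154 times in replicate 2. In Picalm, a clathrin assembly gene, they were at 0.0800 to 0.183 and 0.0678 to 0.158 times.

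**Figure D4:**
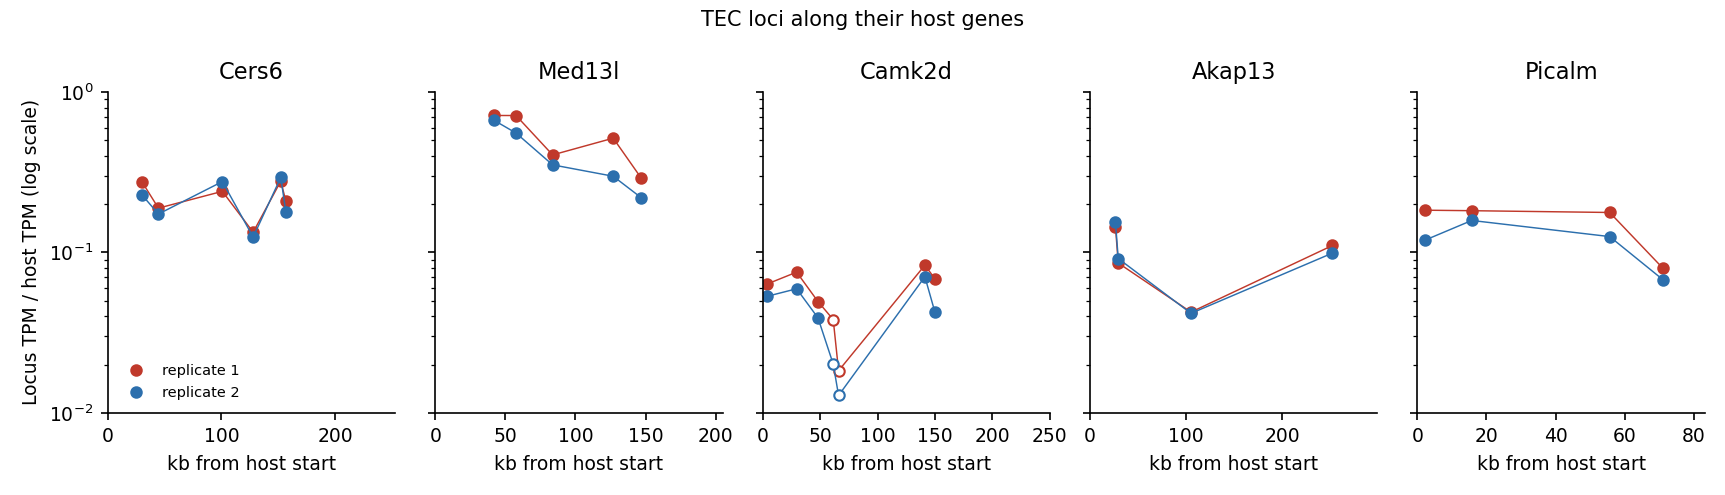
TPM of each same-strand intronic TEC gene divided by the TPM of its host (vertical, log scale) against its distance from the start of the host in kb (horizontal), for the 5 hosts with 4 or more of the loci. Red and blue are replicates 1 and 2, and open circles are the 2 genes of Camk2d that missed the count limit. The loci in Med13l reach 0.714 times their host, and those in Camk2d stay at or below 0.0833 times.

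Across all hosts the 202 loci lay at a median of 29.5 kb from the host's start and 32.6% of the way along it. Among hosts with 1000 or more counts, the 147 loci lay at a median of 34.2% and the 119 intronic TEC genes that missed the limit at 41.2%. Their median lengths were 2556 and 1643 bases, but length enters the counts and so the choice. The ratio of locus to host was only weakly related to position, with Pearson's r of -0.25 and -0.22 across the 202 loci, a description with no test.

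Relative to protein-coding genes the loci were lower in replicate 2. The ratio of replicate 2 to replicate 1 was taken on counts divided by the library total and set so that the median protein-coding gene at the limit is at 0 on the log2 scale. The loci then had a median of -0.47 (SD over loci 0.41), from -1.41 to 0.67, and 236 of 266 (88.7%) were below 0. Of the 5227 protein-coding genes 2613 were below 0 by construction, and of all 5785 genes at the limit 52.9% were.

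By 2-fold or more, 24 loci were lower in replicate 2 (9.02%) and none was higher. Among all genes at the limit 1.4% were 2-fold lower and 4.51% were 2-fold higher. Both counts of a locus entered its choice, so nothing is read from this difference in shares. With 1 library a replicate in a single group there is no test of it, and in bulk RNA fewer cells of a type and less RNA per cell cannot be told apart.

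**Figure D5:**
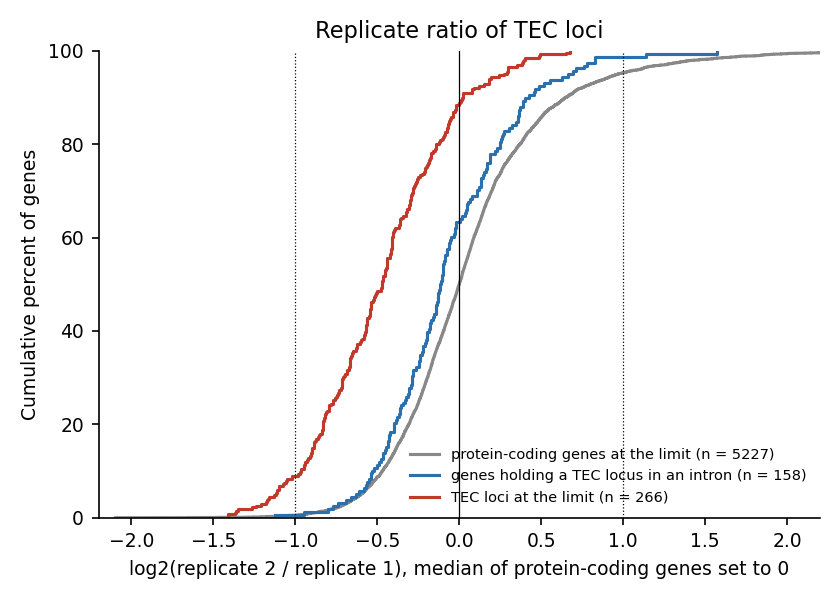
Cumulative percent of genes (vertical) by log2 ratio of replicate 2 to replicate 1, with the median protein-coding gene at 0 (horizontal). The curve of the 266 loci (red) lies left of that of the 158 hosts (blue) and of the 5227 protein-coding genes (grey), with medians of -0.47, -0.11 and 0, and dotted lines mark 2-fold.

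The host genes were nearer to 0. The 158 hosts had a median ratio of -0.11, and the locus was below its own host in 160 of 202 cases, with a median difference between locus and host of -0.37 on the log2 scale. It was 2-fold or more below the host in 16 cases and 2-fold or more above it in 1. Ratios of locus and host were weakly related, with a Pearson's r of 0.26 across the 202 loci. Within hosts with several loci the SD of the ratio was 0.27, against 0.35 over all 71.

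Other noncoding classes also had medians below 0. Medians of the same ratio were -0.35 for 24 sense intronic genes, -0.38 for 71 antisense genes, -0.31 for 39 processed transcripts and -0.25 for 66 lincRNA genes at the limit. By position, the loci in same-strand introns had a median of -0.48, those on the opposite strand only -0.47, those in noncoding genes only -0.54 and those overlapping no gene -0.36. The ratio also moved with base composition, with a Pearson's r between GC content and ratio of -0.35 across the 266 loci and -0.23 across 5221 protein-coding genes with a sequence. The part of GC content in the shift was not tested, and that of RNA input cannot be told apart from the replicate.

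At the low end of the ratio stood Gm43571, in Atxn2, an RNA-binding protein gene, with 819 and 307 counts and a log2 ratio of -1.41, against -0.47 for its host. AC167363.2, on the opposite strand of the cell cycle inhibitor gene Cdkn1a (chr17:29093416-29094461), had 1009 and 379 counts and a ratio of -1.41, while Cdkn1a was at 0.44. Gm45407 in Arhgap10 was at -1.37 and its host at -0.74. Gm44981, on the opposite strand of the taurine transporter gene Slc6a6, had 1453 and 564 counts and a ratio of -1.36, while Slc6a6 was at 0.83. The 2 opposite-strand loci thus differed from the genes they overlap, but they were picked for their low ratios, so no pattern by strand is read from them. Of the 31-base words of AC167363.2, 24.0% also occur, on either strand, in transcripts of Cdkn1a. Some of its reads may therefore be shared with that gene. Gm45828, in an intron of Slc6a6 on its own strand, was also low, at -1.16. Gm47603, on the opposite strand of 2010111I01Rik, was at -1.07 and that gene at -0.95.

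At the high end were 2210406H18Rik, on the opposite strand of the methyltransferase gene Mettl9, with 211 and 336 counts and a ratio of 0.67, and Gm37320, which overlaps no gene, with 226 and 354 counts and 0.65. Gm37954 in Srgap2 was at 0.49 and Gm43633 in Parp11 at 0.49. Of the 31-base words of Gm37954, 33.7% also occur in transcripts of other genes, so some of its reads may be of those. All 4 had under 500 counts in each library.

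Loci were also looked up at genes of the inflammatory response. Of 106 response genes found in the annotation, 5 overlapped a TEC gene of any count and 4 held 1 of the loci, each inside the gene and on its strand. No further locus lay within 5 kb of these genes. Of the 101 response genes at the limit of 200 counts 3.96% thus held a locus on their strand, near the 3.18% of all 5227 protein-coding genes at the limit. Besides Gm37084 in Mapkapk2 and Gm49730 in Parp14, these were Gm43430 in Nfkb1, the gene of an NF-kB subunit, and Gm42994 in Fnbp1l, a gene for a membrane-shaping protein. Gm43430 had 3167 and 1935 counts, or 0.160 and 0.151 times the TPM of Nfkb1, and a log2 ratio of -0.71 beside -0.66 for Nfkb1. Gm42994 had 1417 and 958 counts, or 0.182 and 0.185 times the TPM of Fnbp1l, and a ratio of -0.56 beside -0.58.

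In these 2 genes locus and host differed by less than 0.1 on the log2 scale. In Mapkapk2 the locus was at -1.17 and the host at -0.19. In Parp14 the locus was at -0.36 and the host at 0.05. No untreated macrophages were analysed here, so these levels are not inductions.

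Some counts cannot be given to 1 locus. Gm20236 (chr14:69277601-69282140) in Slc25a37, the gene of the mitochondrial iron importer mitoferrin, and Gm37094 (chr14:69495851-69500390) in Gm16867 have the same 4540-base sequence. Each was given 4746 counts in replicate 1 and 2882.5 in replicate 2, so the reads were split evenly and the level of each copy is uncertain. Gm38378 and Gm37513, also on chromosome 14, share 1 sequence of 2268 bases and each had 332 and 350 counts. The 266 loci therefore hold 264 different sequences. The last 60 bases of the first pair, both on the minus strand, show the identity.
Gm20236, chr14:69277601-69277660: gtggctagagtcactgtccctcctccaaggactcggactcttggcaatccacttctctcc
Gm37094, chr14:69495851-69495910: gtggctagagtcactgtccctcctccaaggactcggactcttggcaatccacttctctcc

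Most loci share little sequence with other annotated transcripts. Of the 31-base words of a locus, a median of 1.41% also occurred, on either strand, in transcripts of other genes, and 60 loci shared none. In 28 loci the share was 10% or more and in 8 it was 50% or more. Besides the 2 identical pairs, these 8 were Gm43312 (76.1%, most of it with its host Ppp1cb), Gm37226 (74.1%, with another TEC gene), 4930594C11Rik (54.6%) and Gm42427 (53.2%). Estimated counts were whole numbers in both libraries, within 0.005, for 238 loci (89.5%) and for 71.3% of the protein-coding genes. A count that is not whole includes reads shared out between entries. A whole count can hold shared reads too, as in the identical Gm38378 and Gm37513, with 332 and 350 counts each.

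The table quantified from the reads gave a larger class. It held all 266 loci above 200 counts and 470 TEC genes more. Those 470 had median read-based counts of 356 and 352 but gene-table counts of 26.4 and 20.3, and 117 of them had no gene-table count in either library. Of the 470, 53.2% lay in same-strand introns and 131 overlapped no gene. The class as a whole took 4.29% and 3.06% of read-based counts, and the 266 loci held 45.5% and 41.7% of those.

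For the loci themselves the tables were closer. The 266 had to pass the limit in the gene table and the 470 to miss it, so this contrast follows from the choice. Read-based counts had a median of 1.28 and 1.59 times the gene-table counts in replicates 1 and 2, near the 1.36 and 1.59 times of protein-coding genes. In 15 of the 266 loci they were 2-fold or more in both libraries. This was a like share to that of the protein-coding genes, where 293 (5.61%) were. Gm42427, which overlaps no gene, had 499 and 231 gene-table counts but 6209 and 4363 read-based ones, 12.4 and 18.9 times as many. Gm43633 in Parp11 had 226 and 316 gene-table counts but 1809 and 1929 read-based ones. Gm48207 in Tmtc2 had 6.0 and 5.5 times as many read-based counts, and Gm37082 had 3.8 and 7.1 times as many. The values of all 15 loci, these among them, depend on the table used.

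The loci nearest to the count limit were as follows. Just inside were Gm45358 with 354 and 200 counts, Gm47826 with 228 and 200 and Gm36989 with 211 and 203. Just outside were Gm46436 with 279 and 199, Gm37621 with 288 and 197 and Gm43201 with 197 and 207.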

How the data were processed

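Total RNA of 2 libraries of 1 group was analysed. The authors deposited expected counts, which are estimated counts per gene that need not be whole, from a transcriptome alignment on mm10 with annotation M21, and a second table of estimated counts per transcript made from the reads, per the labels' accompanying notes. The sources used here do not name the tools, their versions or the use of strand. The deposited TPM values are divided by effective length and scaled over all entries of a table, and the deposited FPKM values are scaled by length and by library depth, per the file headers. The deposited lengths are in bases, per the file headers.

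Totals were 14374739 and 16372797 counts. Entries with no gene identifier took 1.41% and 0.245% of them and stayed in the totals, but in no list. The loci are genes whose transcripts are all of type TEC with 200 or more expected counts in both gene tables. The replicate ratio is log2 of counts over the library total in replicate 2 against replicate 1, minus the median over protein-coding genes at that limit. Nothing was tested, since there is 1 group, and no p-value is given. Positions came from GENCODE M21. A locus was placed in the overlapping protein-coding gene with most counts, same strand first. Wilson intervals of 95% cover only counting error: without molecular identifiers, reads may be copies of 1 molecule.

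Named loci were the 10 with most counts, the 5 with highest TPM, the 4 highest and 4 lowest ratios, the 3 longest and 3 shortest, the 3 on each side of the limit and those within 5 kb of a response gene, with their host genes. The members and lists were chosen with earlier results of these data known. Response genes were 107 symbols, of which 106 matched. The scripts were tested on simulated data. Python 3.11.15, pandas 2.3.3, numpy 2.4.6 and matplotlib 3.10.9 were used, and edgeR 4.0.16 and DESeq2 1.42.0 in R 4.3.3 gave alternative scalings of the estimated counts. Other alternatives changed the count limit, the table, the unit, the reference genes and the libraries.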

Additional observations from a re-analysis of the deposited data

How the results depend on the processing

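Of 58 alternative values computed for the 7 summary results, 34 stayed within the spread between the libraries or 1.5 times the count, and none reversed. Only the log2 ratio could change sign, since the other results are numbers of loci, a share, a level and a length. The alternatives that compare the ratio with protein-coding genes of like count or GC content, with the hosts, with 1 locus per host and over whole counts were chosen after seeing the data. With a limit of 100 counts there were 424 loci, with a median length of 2552 bases, 342 on the strand of an overlapping protein-coding gene (217 at 200 counts) and 42 past 2-fold. With a limit of 500 counts there were 115 loci, with a median of 25.5 TPM, 3063 bases, 98 such overlaps and 7 past 2-fold. With the limit on the read-based table there were 736 loci, with 4.11 TPM, 2551 bases, 475 overlaps and 128 past 2-fold. The 470 genes added by that limit had median gene-table counts of only 26.4 and 20.3, and 117 had none in either library. Shares past 2-fold over all genes are given only for the limit of 200 counts in both libraries. Nothing is therefore read from the numbers past 2-fold under the alternatives. Over all TEC genes the medians were 0.02 TPM and 1954 bases. Effective length gave 2495 bases. The median log2 ratio of -0.47 became -0.37 on log2(TPM + 1), with a pseudocount of 1, and -0.36 against the host genes. It lay between -0.40 and -0.55 under the TPM, FPKM, read-based and like-GC alternatives. TMM and DESeq2 scaling were used without setting the protein-coding median to 0. They gave -0.40 and -0.43 for the loci, beside medians of 0.075 and 0.042 for the protein-coding genes. Counting exon overlap only left 15 overlaps, and read-based counts left 11 past 2-fold. Choosing loci on 1 library alone gave median lengths of 2598 to 2687 bases and 30 to 53 loci past 2-fold, 53 when the choice rested on replicate 1, and 280 to 352 loci in all. The cause of these moves was not tested, except that another limit by construction takes other loci. No paired analysis was possible because the 2 libraries form 1 group. With n = 2, the SD of a single locus rests on 1 difference and is itself imprecise.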
